A study of Mus musculus with 6 samples.

Results

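The p53 pathway was examined through 34 genes chosen by name from the 22322 genes of the deposited table: Trp53 itself, the genes that restrain or extend its activity, and genes known as its direct transcriptional targets. Genes of the BH3-only, caspase, sestrin and cyclin families were left out of this list by the rule that set it, apart from the cyclin-like gene Ccng1. RNA-Seq was done on DP (CD4+CD8+) thymocytes, sorted by flow cytometry and given no treatment. There were 3 libraries labelled WT, from Paxbp1fl/fl mice (called control here), and 3 libraries from Paxbp1fl/fl Lckcre mice (called cKO). Both groups therefore carry the floxed allele, in which exon 8 of Paxbp1 is flanked by loxP sites, and cKO mice also carry a Cre transgene driven by the Lck promoter, which acts from an early stage of T cell development. The controls were littermates without Cre, so that the transgene and the deletion cannot be told apart. Mice were 4 to 7 weeks old, of both sexes, on a C57BL/6 background. No source states that each library came from a separate mouse, so the p-values measure the spread between libraries, which may be technical.

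As background, p53 is a transcription factor that is held at a low level by Mdm2, a ubiquitin ligase that marks it for degradation, and by Mdm4, a related protein that blocks its activity. DNA damage and other stresses release p53, which then binds a pair of similar 10-letter units in DNA and turns on genes for cell cycle arrest, DNA repair and cell death, and also Mdm2, which closes a feedback loop. Thymocytes are among the cells that die readily after p53 is activated, and DP thymocytes rearrange the T cell receptor alpha locus through DNA breaks. Since p53 is controlled mostly at the level of the protein, the mRNA of Trp53 is no measure of its activity.

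Library totals ran from 18963775 to 26252248 counts, and a single count stood for 0.0388 to 0.0521 CPM (counts relative to the size of the library, scaled by TMM). Paxbp1 had 40.1, 16.3 and 15.5 CPM in control libraries 1, 2 and 3 and 38.8, 47.1 and 49.6 CPM in the libraries labelled cKO 1, 2 and 3 (log2 fold change 0.92, edgeR adjusted p = 0.0977). Control library 1 thus lay within the range of the libraries labelled cKO, away from the other controls. A gene on the other strand overlaps 20.7% of the exonic bases of Paxbp1. The paper reports loss of Paxbp1 in sorted cKO DP cells by qPCR and by western blot. Counts per gene cover mostly sequence outside the deleted exon, so they check no label, and the targeted gene was not lower where the label says cKO. Every direction given here therefore rests on the labels. All 12 markers of DP thymocytes passed the filter on low counts, and 4 of them were lower in the libraries labelled cKO at an adjusted p below 0.05. Their summed level was 18202 to 20610 CPM in control and 13564 to 15701 CPM in the libraries labelled cKO. In bulk RNA, fewer cells of a type and less RNA per cell cannot be told apart. Of 15 macrophage markers, 10 were tested and 4 were higher, with a summed level of 29.0 to 51.7 CPM in control and 65.3 to 84.8 CPM in the libraries labelled cKO, while Mertk and Vsig4 had no count in any library. Of the lists for dendritic cells, DN and ISP thymocytes, B cells, neutrophils, mature SP thymocytes, erythroid cells and the thymic epithelium, the first 2 had 2 and 3 genes that were higher and the B cell list 1 gene that was lower, and none of the tested genes of the other lists passed.

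Of the 34 genes 3 had no count in any library, and the other 31 all passed the filter on low counts and were tested in one fit over 11488 genes (quasi-likelihood test of edgeR, p adjusted by Benjamini-Hochberg). At an adjusted p below 0.05, 7 rose and 2 fell in the libraries labelled cKO, or 29.0% of those tested, where 10.4% of all tested genes passed. For the rising genes the shares were 22.6% of the members and 4.47% of all tested genes, and for the falling genes 6.45% and 5.89%. The genes that rose were Gadd45b, Plk3, Cd82, Phlda3, Plk2, Gtse1 and Ccng1, and those that fell were Xpc and Trp53inp1. With the added demand of an absolute log2 fold change above 1, 5 rose and 1 fell, where 2.76% of all tested genes passed, 1.53% higher and 1.23% lower. The median log2 fold change was 0.43 over the 31 members and -0.0017 over all tested genes, with 23 members above 0 and 8 below, where 49.8% of all tested genes were above 0. For 18 of the 31 members (58.1%) every control library lay on one side of every library labelled cKO, beside 33.0% of all tested genes. Of these 12 were higher (15.7% of all tested genes) and 6 lower (17.3%) in the libraries labelled cKO. The plot of the genes past the threshold shows them library by library, and the plot of fold changes shows all 31 members by role.

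**Figure D1:**
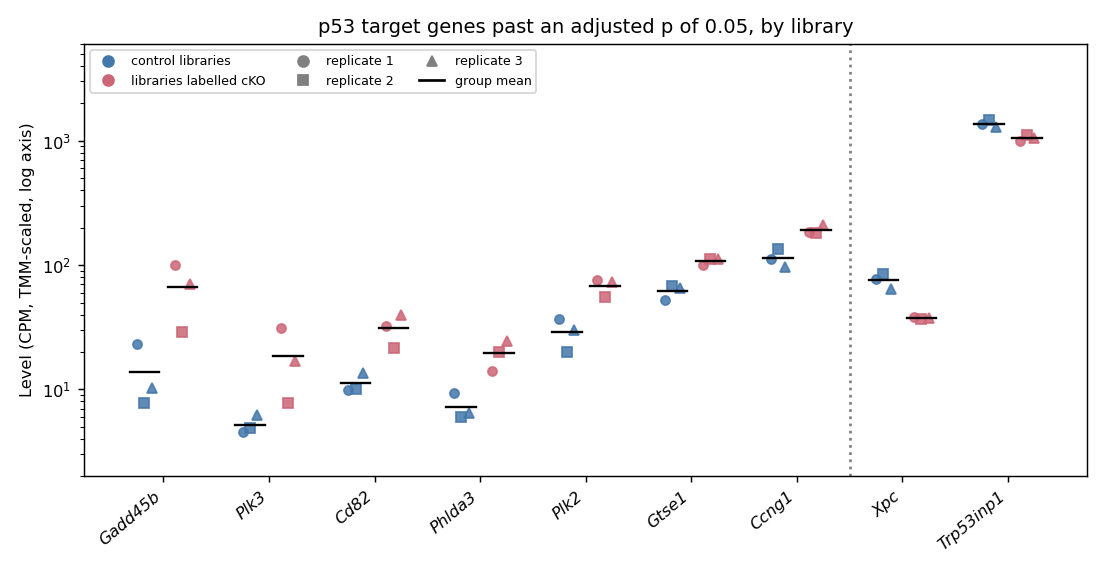
Level of each of the 9 members past an adjusted p of 0.05, in CPM on a log axis, in the 3 control libraries (blue) and the 3 libraries labelled cKO (red), with the replicate number as the marker shape and the group mean as a black line. The groups do not overlap for any of the 9 genes, and within the libraries labelled cKO Gadd45b runs from 28.9 to 99.2 CPM while Xpc runs from 36.9 to 38.3 CPM.

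**Figure D2:**
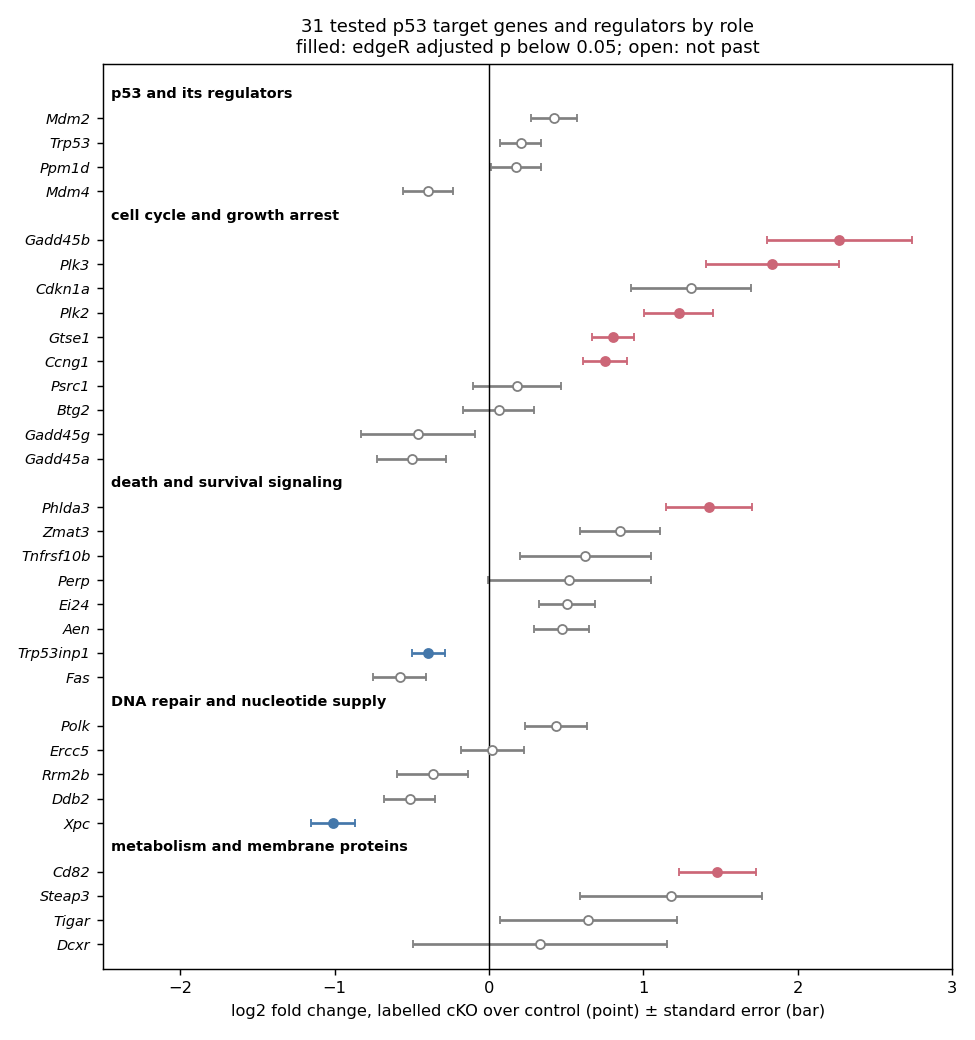
Log2 fold change of the 31 tested members, labelled cKO over control, with its standard error, ordered by role and by size. Filled points passed an adjusted p of 0.05 and open points did not, and the filled points to the right of 0 lie mostly among the genes of cell cycle and growth arrest.

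RefSeq promoter windows (GRCm38.p6, from 250 bases before to 50 after an annotated start) were at hand for 27 of the 34 genes, in 43 windows. They were searched for the p53 decamer, the repeated unit of a p53 site, which has 3 purines, C, 2 letters that are A or T, G and 3 pyrimidines and therefore reads the same on both strands. A decamer was found in the windows of 10 of the 27 genes (37.0%), beside 9.55% of 27025 genes with a window. By window these were 25.6% and 8.36% of 32851 windows. A full site, taken as decamers directly after each other in 20 bases with the C and G of each intact and at most 2 other mismatches, was in 4 of the 43 windows (9.30%) and in 0.326% of all windows. The genes were listed as known p53 targets or regulators, so these higher shares are no independent evidence. The 4 windows belong to Ccng1 and Gtse1, which rose, to Cdkn1a, which did not pass the threshold, and to Trp73, which had no count. Stretches with a match are shown for these genes and for Mdm2, since they set the letters beside the values that follow. The window of Mdm2 held 1 decamer and no full site, and a role of this decamer in the feedback was not tested. Each reads 5′ to 3′ on the strand of the gene, with decamers and full sites in capitals.
Ccng1, chr11:40755412-40755511, minus strand: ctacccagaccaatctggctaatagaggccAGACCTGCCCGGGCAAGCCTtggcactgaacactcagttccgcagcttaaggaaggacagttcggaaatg
Cdkn1a, chr17:29090879-29090978, plus strand: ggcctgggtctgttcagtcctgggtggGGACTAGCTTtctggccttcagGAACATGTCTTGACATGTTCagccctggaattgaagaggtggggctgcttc
Mdm2, chr10:117710875-117710974, minus strand: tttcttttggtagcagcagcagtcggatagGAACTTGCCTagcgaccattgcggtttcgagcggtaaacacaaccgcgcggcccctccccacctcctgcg
Gtse1, chr15:85859945-85859964, plus strand: GAGCAAGTTGGGGCTTGCCT
Trp73, chr4:154097220-154097239, minus strand: GGGCAAGCTGAGGCCTGCCC
The full site of Ccng1 began 195 bases before its start and had 1 mismatch, that of Cdkn1a began 51 bases before the start in 1 of its windows, also with 1 mismatch, and that of Gtse1 began 1 base before a start, again with 1. The decamer of Mdm2 began 186 bases before its start. Decamers also lay in windows of Trp53, Ppm1d, Aen, Ei24, Polk and Gadd45a. No match was in the windows of Gadd45b, Plk2, Plk3, Phlda3 and Cd82, which says only that these letters are not in these windows. The windows of Zmat3, Ddb2, Xpc, Trp53inp1, Tnfrsf10b, Rrm2b and Perp were not analysed here.

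None of Trp53 and its regulators passed the threshold, and their differences were small and lay in both directions. Trp53 (chromosome 11 of GRCm38, from 69580359 to 69591873 on the plus strand in GENCODE release M21) had 195, 252 and 268 CPM in control libraries 1, 2 and 3 and 275, 266 and 284 CPM in the libraries labelled cKO 1, 2 and 3. The groups overlapped, at a log2 fold change of 0.21 ± 0.13 (S.E., edgeR adjusted p = 0.350). Mdm2 had 187, 139 and 136 CPM in control and 203, 188 and 227 CPM in the libraries labelled cKO. No control library reached the cKO level, though control library 1 came close to cKO 2. The log2 fold change of 0.42 ± 0.15 (S.E.) did not pass (edgeR adjusted p = 0.0912), while DESeq2 gave 0.43 and an adjusted p of 0.0397. Without control library 1 the edgeR value was 0.58 and passed (adjusted p = 0.00725), and with any other library left out it was 0.34 to 0.48 and did not pass. Mdm4 had 624, 411 and 417 CPM in control and 371, 385 and 346 CPM in the libraries labelled cKO, all 3 of which were below all controls. Its log2 fold change was -0.40 ± 0.16 (S.E., edgeR adjusted p = 0.142). Without control library 1, the highest, it was -0.17 (adjusted p = 0.220), and with any other library left out it was -0.50 to -0.36. Ppm1d, a phosphatase that switches the p53 response off, had 75.0 to 83.6 CPM in control and 67.7 to 101 CPM in the libraries labelled cKO (log2 fold change 0.18, adjusted p = 0.518). Of the 4 tested regulators none passed with edgeR, where 10.4% of all tested genes passed, and 2 had an unadjusted p below 0.05. At that unadjusted p, 1524 of the 11488 tested genes were higher and 1680 lower. With DESeq2 1 of the 4 regulators passed, and with limma-voom none. Trp73, a relative of Trp53, had no count in any library.

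Because Mdm2 and Mdm4 lay apart in opposite directions, their ratio within each library was also taken, a choice made after the values were seen. Per unit of length (FPKM), the Mdm2 level was 0.539, 0.633 and 0.571 times the Mdm4 level in control libraries 1, 2 and 3 and 0.971, 0.880 and 1.15 times in the libraries labelled cKO 1, 2 and 3. The mean ratio was 0.581 ± 0.0478 in control and 0.9995 ± 0.136 in the libraries labelled cKO (mean ± S.D., n = 3 each). The ratio does not depend on the scaling between libraries. An exact permutation test over the 20 assignments of the libraries gave p = 0.1, the smallest value it can give here. That test cannot decide the question, since the ratio was formed from genes already seen to lie apart. The ratio does not show which gene differs.

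Among 10 genes of cell cycle and growth arrest, 5 rose (50%) and none fell, where 4.47% of all tested genes rose and 5.89% fell. Ccng1 (chr11:40748552-40755311, minus strand) encodes cyclin G1, a well known p53 target that acts with the phosphatase PP2A on Mdm2. It had 112, 134 and 95.7 CPM in control libraries 1, 2 and 3 and 183, 181 and 212 CPM in the libraries labelled cKO 1, 2 and 3. All 3 of the latter were above all controls, and Ccng1 rose by a log2 fold change of 0.75 ± 0.14 (S.E., edgeR adjusted p = 0.0120). Gtse1 (chr15:85859745-85876573, plus strand), which is expressed in G2 and S phase and can hold p53 back, had 52.6, 67.7 and 65.9 CPM in control and 99.6, 112 and 113 CPM in the libraries labelled cKO. The spread within each group was narrow, and the log2 fold change was 0.80 ± 0.14 (S.E., edgeR adjusted p = 0.00880). Psrc1, a microtubule protein of mitotic cells, had 8.61 to 16.6 CPM in control and 11.5 to 18.6 CPM in the libraries labelled cKO (log2 fold change 0.18, adjusted p = 0.730). None of 20 genes typical of G2 and M phase passed beside them with edgeR, 1 had an unadjusted p below 0.05, and DESeq2 called 1, which was lower, and limma-voom none. Their median log2 fold change was 0.03. Their summed level was 4015, 6372 and 6751 CPM in control libraries 1, 2 and 3. In the libraries labelled cKO 1, 2 and 3 it was 4830, 5952 and 6302 CPM, so control library 1 was the lowest. The paper reports enriched cell cycle and DNA replication pathways in cKO DP cells, and more BrdU incorporation. No list of genes typical of S phase was made, and the part of the cell cycle in the level of Gtse1 was not tested.

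Cdkn1a (chr17:29090976-29100727, plus strand) encodes p21, the inhibitor of cyclin-dependent kinases that carries out much of the arrest by p53. It had 4.82, 4.22 and 10.4 CPM in control and 15.9, 10.4 and 22.3 CPM in the libraries labelled cKO. The groups overlapped by a small margin, since control library 3 (10.41 CPM) lay above cKO 2 (10.36 CPM). The means were 6.48 ± 3.41 and 16.2 ± 5.95 CPM (mean ± S.D., n = 3 each), and the log2 fold change of 1.31 ± 0.39 (S.E.) did not pass (edgeR adjusted p = 0.0569). DESeq2 gave 1.32 with an adjusted p of 0.00845, and limma-voom 1.32 with 0.0548. With 1 library left out, the edgeR value ranged from 1.01 without cKO 3 (adjusted p = 0.226) to 1.84 without control 3 (adjusted p = 0.0227). Among these fits it otherwise passed only without cKO 2 (1.55, adjusted p = 0.0487). Of the 7 other alternatives Cdkn1a passed in 4, DESeq2 among them. The edgeR adjusted p was 0.0285 with no filter on low counts and 0.0453 under a filter of 5 CPM. With another scaling it was 0.0550, and with total counts alone 0.0535.

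The kinase genes Plk2 and Plk3 and the Gadd45 and Btg2 genes respond to many stresses besides p53. Plk2 (chr13:110395046-110400844, plus strand) had 37.1, 19.998 and 30.2 CPM in control and 76.3, 55.0 and 73.3 CPM in the libraries labelled cKO, a log2 fold change of 1.23 ± 0.22 (S.E., edgeR adjusted p = 0.0101). Plk3 (chr4:117128655-117133963, minus strand) had 4.56, 4.88 and 6.21 CPM in control and 31.4, 7.76 and 16.9 CPM in the libraries labelled cKO. All 3 libraries labelled cKO were above the controls for both genes, but for Plk3 they differed widely among themselves, and the log2 fold change of 1.84 had a standard error of 0.43 (edgeR adjusted p = 0.0264). With limma-voom Plk3 did not pass (log2 fold change 1.64, adjusted p = 0.0658). Gadd45b (chr10:80930073-80932204, plus strand), which binds stress kinases and the cell cycle machinery and is also a target of NF-kB, had 23.2, 7.81 and 10.2 CPM in control and 99.2, 28.9 and 70.1 CPM in the libraries labelled cKO. It had the largest change of the 31 members, a log2 fold change of 2.27 ± 0.47 (S.E., edgeR adjusted p = 0.0167). Btg2, an antiproliferative gene induced early after many stimuli, had 713, 514 and 450 CPM in control and 729, 390 and 631 CPM in the libraries labelled cKO, which overlapped fully (log2 fold change 0.06, adjusted p = 0.894).

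In Plk2, Plk3, Gadd45b and Btg2 the library labelled cKO 1 was the highest and cKO 2 the lowest of their group. This order was not particular to them, since it was also that of Gadd45a, Gadd45g, Ercc5, Perp, Ei24 and Xpc. None of these rose past the threshold. The same order held for the summed level of 25 immediate early genes, which was 15198, 7973 and 11744 CPM in the libraries labelled cKO 1, 2 and 3 and 8898, 5986 and 7249 CPM in control libraries 1, 2 and 3. Of the 24 tested immediate early genes 8 were higher and 1 lower at an adjusted p below 0.05 (37.5%, beside 10.4% of all tested genes). The part of these genes in the values of Plk2, Plk3 and Gadd45b was not tested. For the relatives Gadd45a and Gadd45g the difference lay below 0 and did not pass. Gadd45a, a damage sensor and classical p53 target, had 48.0, 27.0 and 46.7 CPM in control and 32.2, 25.3 and 28.6 CPM in the libraries labelled cKO (log2 fold change -0.50, adjusted p = 0.173), and a gene on the other strand overlaps 19.1% of its exonic bases. Gadd45g had 18.1 to 41.3 CPM and 12.3 to 30.2 CPM (log2 fold change -0.46, adjusted p = 0.459). Taken per unit of length (FPKM), Gadd45b made up 24.2%, 14.3% and 9.77% of the summed level of the family in control libraries 1, 2 and 3 and 59.1%, 41.6% and 59.0% in the libraries labelled cKO. This quantity was also chosen after the values were seen, and the exact permutation test again gave its smallest possible value (p = 0.1), which decides nothing. Gadd45a was the most abundant of the family in control libraries 1 and 2 and shared that place with Gadd45g in control library 3, whereas Gadd45b was the most abundant in all 3 libraries labelled cKO.

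**Figure D3:**
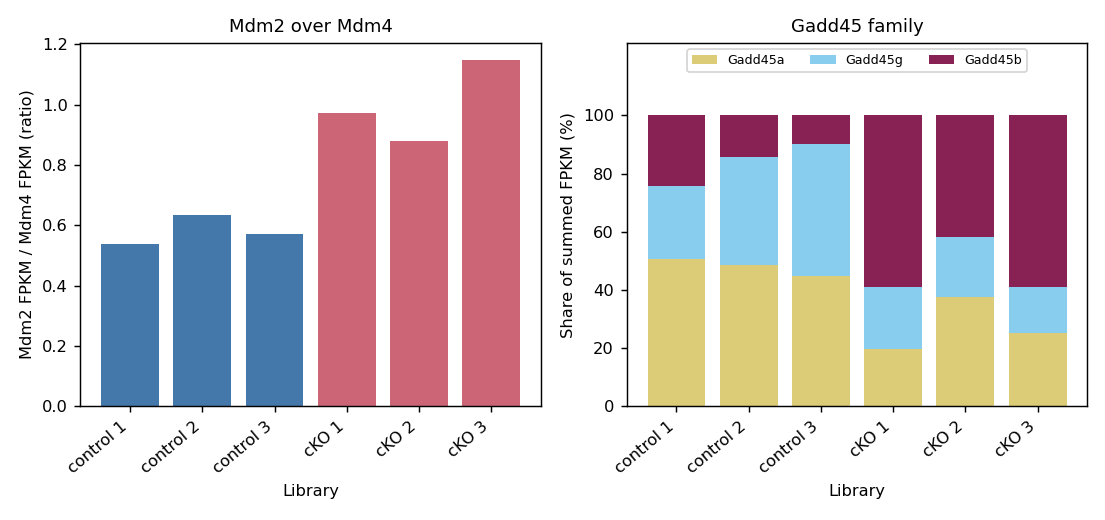
Left, the FPKM of Mdm2 divided by the FPKM of Mdm4 in each library. Right, the share of Gadd45a, Gadd45g and Gadd45b in their summed FPKM in each library, in percent. All 3 libraries labelled cKO lie above all controls for the ratio (0.880 to 1.15 against 0.539 to 0.633) and for the Gadd45b share (41.6% to 59.1% against 9.77% to 24.2%).

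Of 9 genes of death and survival signaling 8 were tested, and 1 rose and 1 fell. These were 12.5% in each direction, beside 4.47% and 5.89% of all tested genes. Phlda3 (chr1:135766119-135769136, plus strand), which competes with the kinase Akt for membrane lipids and so dampens a survival signal, had 9.44, 6.01 and 6.41 CPM in control libraries 1, 2 and 3 and 14.1, 19.9 and 24.7 CPM in the libraries labelled cKO 1, 2 and 3. The groups were apart, and Phlda3 rose by a log2 fold change of 1.42 ± 0.28 (S.E., edgeR adjusted p = 0.0131). Zmat3, an RNA-binding protein and direct p53 target, had 6.02, 7.40 and 5.01 CPM in control and 11.0, 12.4 and 9.69 CPM in the libraries labelled cKO. The groups were apart here as well, but the log2 fold change of 0.85 ± 0.26 (S.E.) missed the threshold (edgeR adjusted p = 0.0623) and passed with DESeq2 (0.86, adjusted p = 0.0300). Ei24, a protein of the endoplasmic reticulum, had 12.7, 15.9 and 14.1 CPM in control and 20.8, 19.3 and 20.5 CPM in the libraries labelled cKO, again without overlap (log2 fold change 0.50, adjusted p = 0.104). Aen, a nuclease that takes part in p53-dependent cell death, had 36.1 to 48.6 CPM in control and 46.0 to 64.9 CPM in the libraries labelled cKO (log2 fold change 0.47, adjusted p = 0.117).

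Trp53inp1 fell, and the receptor Fas was also lower without passing the threshold. Trp53inp1 (chr4:11156431-11174379, plus strand), which encodes a nuclear protein that promotes p53 activity and autophagy, was the most abundant of the 34 genes per unit of length in control (252 ± 17.6 FPKM, mean ± S.D., n = 3). It had 1362, 1469 and 1286 CPM in control and 987, 1106 and 1043 CPM in the libraries labelled cKO, a small but even difference with a log2 fold change of -0.39 ± 0.10 (S.E., edgeR adjusted p = 0.0409). Fas, a death receptor, had 144, 133 and 106 CPM in control and 96.8, 93.6 and 65.7 CPM in the libraries labelled cKO. All 3 of the latter were below the controls, but the log2 fold change of -0.58 ± 0.17 (S.E.) did not pass (edgeR adjusted p = 0.0588), whereas with DESeq2 it did (-0.57, adjusted p = 0.0186). All 12 markers of DP thymocytes also had log2 fold changes below 0 (median -0.39), and the part of the cell composition in the lower values of Trp53inp1 and Fas was not tested. Tnfrsf10b, a TRAIL receptor, had 2.75 to 3.75 CPM and 2.78 to 7.29 CPM, and Perp, a membrane protein of epithelia, 2.06 to 5.67 CPM and 2.71 to 10.4 CPM, both with overlap (adjusted p = 0.374 and 0.570).

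The genes of DNA repair and nucleotide supply held the other gene that fell. Xpc encodes the protein that first recognises distorted DNA in nucleotide excision repair (chromosome 6 of GRCm38, from 91489305 to 91515888 on the minus strand in GENCODE M21). It had 77.2, 85.03 and 64.5 CPM in control libraries 1, 2 and 3 and 38.3, 36.9 and 37.2 CPM in the libraries labelled cKO 1, 2 and 3. The libraries labelled cKO were close together and all far below the controls, so that the group means were 75.6 ± 10.3 and 37.4 ± 0.724 CPM (mean ± S.D., n = 3 each). The log2 fold change was -1.01 ± 0.14 (S.E., edgeR adjusted p = 0.00495), the lowest adjusted p of the 31 members. Ddb2, which finds ultraviolet lesions for the same repair pathway and is a p53 target in human cells, had 73.3, 64.5 and 76.5 CPM in control and 44.3, 62.0 and 43.8 CPM in the libraries labelled cKO. These were also apart, with cKO 2 near the controls (log2 fold change -0.51, standard error 0.16, edgeR adjusted p = 0.0722), and DESeq2 gave -0.50 with an adjusted p of 0.0385. The gene Acp2 on the other strand overlaps 23.8% of the exonic bases of Ddb2, and the sources used here do not say whether reads were counted by strand.

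Rrm2b, a subunit of ribonucleotide reductase that supplies nucleotides for repair, had 11.8, 11.8 and 13.9 CPM in control and 7.94, 10.7 and 10.4 CPM in the libraries labelled cKO (log2 fold change -0.37, adjusted p = 0.332). Among the 31 genes it was the only one for which the deposited FPKM gave the opposite sign (4.72 ± 2.35 FPKM in control and 4.84 ± 1.10 in the libraries labelled cKO, mean ± S.D., n = 3 each). Polk, a DNA polymerase that copies past lesions, had 17.3, 16.7 and 12.2 CPM in control and 19.99, 19.1 and 23.2 CPM in the libraries labelled cKO, apart but not past the threshold (log2 fold change 0.43, adjusted p = 0.195). Ercc5, the nuclease that cuts on the 3′ side of a lesion, had 29.5 to 45.3 CPM and 29.8 to 43.8 CPM (log2 fold change 0.02, adjusted p = 0.964). Within this role, 3 genes were thus lower and 2 higher, with a median log2 fold change of -0.37, whereas the median of the 10 arrest genes was 0.78. Only Xpc of these 5 repair and nucleotide genes passed (20%, beside 10.4% of all tested genes).

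Of the 4 tested genes for metabolic and membrane proteins, only Cd82 passed, and it rose (25%, beside 4.47% of all tested genes that rose). Cd82 (chr2:93419111-93463140, minus strand) encodes a tetraspanin of the cell surface, and it had 9.91, 10.02 and 13.6 CPM in control libraries 1, 2 and 3 and 32.3, 21.7 and 39.5 CPM in the libraries labelled cKO 1, 2 and 3. All 3 libraries labelled cKO were above the controls, at a log2 fold change of 1.48 ± 0.25 (S.E., edgeR adjusted p = 0.00825). The macrophage markers were higher in the same libraries, with cKO 3 the highest for both, and their part in the level of Cd82 was not tested. Steap3, a metalloreductase, had 1.66, 0.463 and 1.90 CPM in control and 2.92, 3.44 and 2.82 CPM in the libraries labelled cKO, apart but with few counts (9 to 66 per library, log2 fold change 1.18, standard error 0.59, adjusted p = 0.226). Tigar, a regulator of glycolysis, had 1.20 to 4.32 CPM over all libraries, and Dcxr, a sugar reductase, 0.194 to 1.71 CPM, and neither passed (adjusted p = 0.509 and 0.840). No read was counted for Eda2r, a death domain receptor, for Ak1, an adenylate kinase, or for Trp73 in any of the 6 libraries. A count of 0 allows up to 3 counts, or 0.116 to 0.156 CPM depending on the library.

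**Figure D4:**
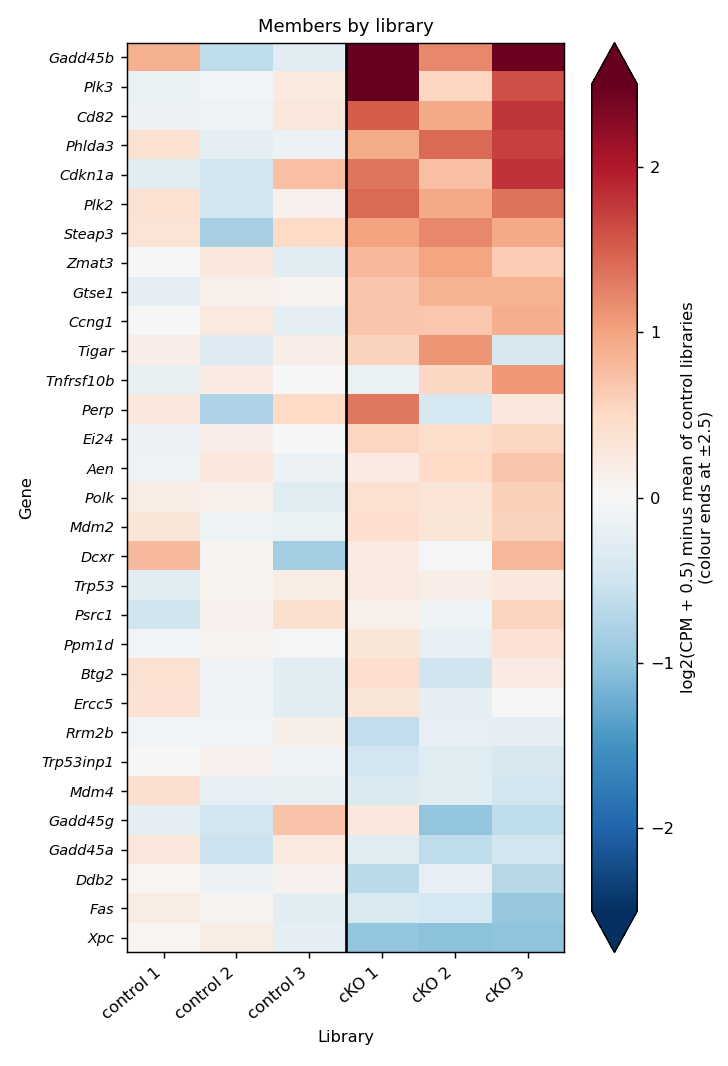
Each tested member (rows) in each library (columns), as log2(CPM + 0.5) minus the mean of the control libraries, with red above and blue below the control mean and the colour scale ending at 2.5 on either side. The rows at the top are red in all 3 libraries labelled cKO, Xpc, Fas and Ddb2 at the bottom are blue there, and cKO 3 holds the highest value of 12 of the 31 genes.

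Other genes of the pathway were counted in the same way, on lists written by hand and on the KEGG annotation of the deposited table. Of 30 direct p53 targets outside the members 26 were tested, of which 3 were higher and 1 lower at an adjusted p below 0.05 (15.4%, beside 10.4% of all tested genes). Among those past the threshold, Pmaip1 (Noxa, log2 fold change 2.30) and Pidd1 (the core of the PIDDosome, 1.65) had the largest increases and Fancc, of the Fanconi anemia complex, fell by 0.87 on the log2 scale. Of 27 tested kinases and modifiers of p53, 2 were higher and 3 lower (18.5%). Chek1, the checkpoint kinase, rose by 1.40, and Ppp1r13b, which encodes ASPP1, a p53 partner that favours cell death genes, and Trim24, a ubiquitin ligase for p53, had log2 fold changes of -1.19 and -0.87. Of 45 tested genes of the KEGG p53 signaling pathway outside the members 5 were higher and 2 lower (15.6%), and among these Pmaip1, Pidd1 and Chek1 had the largest absolute log2 fold changes. These 3 lists share genes, so their counts are not separate. With each gene taken once, 85 were tested, of which 7 were higher and 5 lower (14.1%, beside 10.4% of all tested genes). Of the immediate early genes past the threshold, Atf3, Ier3 and Fosb had the largest changes, with log2 fold changes of 3.84, 2.59 and 2.59 (adjusted p = 0.0330, 0.0347 and 0.0231).

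Of the 9 members called with all libraries, only 1 kept the call in all 6 fits with 1 library left out. Without the library labelled cKO 3, none of the 31 members rose at an edgeR adjusted p below 0.05. Over all tested genes the number that rose went from 514 to 56 and the number that fell from 677 to 103. At an unadjusted p below 0.05, 12 members and 1524 of the 11488 tested genes were higher with all libraries. Without cKO 3 it was 10 members, and the number over all genes was not taken. Gadd45b and Plk3 also lost the call without control 2, control 3 or cKO 1 (adjusted p between 0.0502 and 0.0968 over the 4 fits). Trp53inp1 lost it in 5 of the 6 fits and kept it without control 1 (adjusted p = 0.0190), although its log2 fold change stayed between -0.44 and -0.34. Cd82, Phlda3, Plk2, Gtse1 and Ccng1 lost it only without cKO 3, where their adjusted p lay between 0.0529 and 0.0774 and their log2 fold changes between 0.68 and 1.27. Xpc was the only member that passed with each of the 6 libraries left out in turn (log2 fold change between -1.12 and -0.92, edgeR adjusted p at most 0.0397), as the plot of calls by setting shows.

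**Figure D5:**
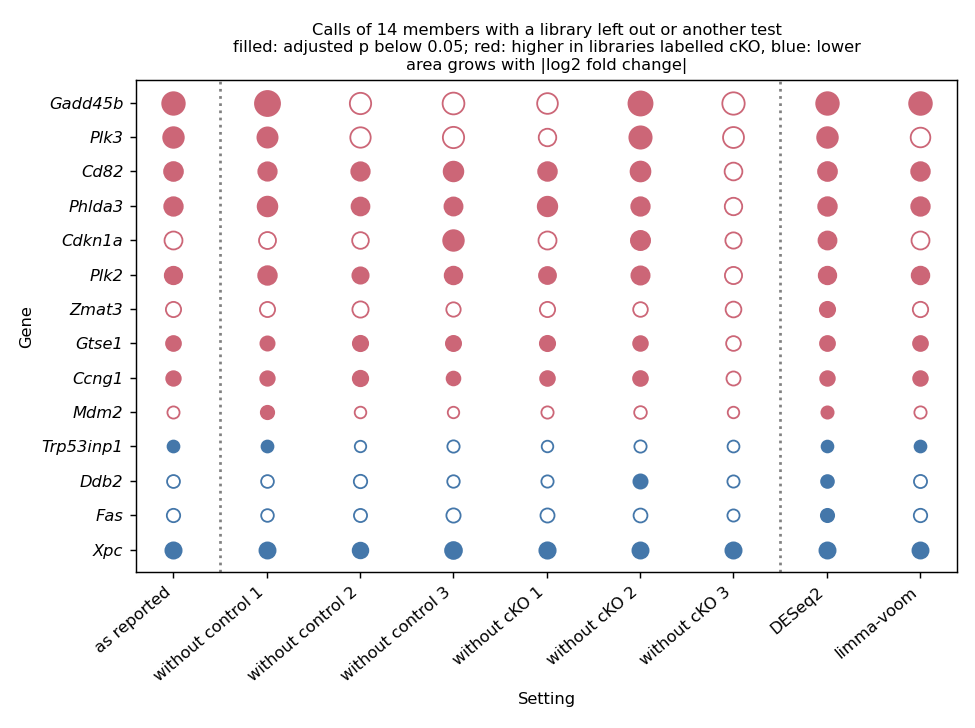
Calls of 14 members in the fit with all libraries, with each library left out in turn, and with DESeq2 or limma-voom. A filled circle marks an adjusted p below 0.05, red means higher and blue lower in the libraries labelled cKO, and the area grows with the absolute log2 fold change. The column without cKO 3 is filled for Xpc alone. The 14 genes shown are those that DESeq2 called, so its column is full by the choice of genes.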

How the data were processed

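RNA-Seq counts per gene and FPKM values (fragments relative to transcript length and library size) were deposited by the authors in one table for 6 libraries, 3 per group. The labels name a SMARTER kit for amplification. The submitters' processing notes list fastp (0.18.0), Bowtie2 (2.2.8), HISAT2, StringTie and RSEM, without their roles, and the sources used here do not name a genome build. Columns of the authors' group means, fold changes and p-values were not used. Genes were placed on GRCm38 with GENCODE M21 by identifier.

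Members were matched by symbol and all counts were analysed as deposited. Genes passing filterByExpr (minimum count 10, minimum total 15) were scaled by TMM and fitted for genotype with edgeR's quasi-likelihood test (edgeR 4.0.16, R 4.3.3), with p-values adjusted over all 11488 genes. The fit was tested on simulated data. CPM values use TMM-scaled totals of the tested genes. Alternatives were DESeq2 (1.42.0), limma-voom (limma 3.58.1), other scalings and filters, the replicate number as a term, and each library left out. Values in every library were given for members past an adjusted p of 0.05, for members without overlap and for Trp53, Mdm2, Mdm4, Cdkn1a, Ccng1 and Zmat3. Of the other lists, the 3 genes past the threshold with the largest absolute log2 fold changes were named. The members and lists were chosen with earlier results of these data known. FPKM was used for levels and ratios between genes and to check the sign of the members' differences. The limit that a count of 0 allows covers counting error only.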

Additional observations from a re-analysis of the deposited data

How the results depend on the processing

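With 3 libraries per group, a common coefficient of variation of 0.228 and TMM factors near 1, another scaling moved the median log2 fold change of all genes by at most 0.02, and 26 of the 31 members kept their sign under every alternative that tested them (the filter of 5 CPM tested 27). DESeq2 called 953 genes as higher and 987 as lower, among them 10 and 4 members and 22 and 10 genes of the other lists. These lists include the immediate early and G2/M genes, and without them the numbers were 13 and 7. With total counts alone, under a filter of 5 CPM and in limma-voom, 0 members fell by more than 1 on the log2 scale, since Xpc then lay at or just inside -1. With 1 library left out, 56 to 1039 genes rose and 103 to 1042 fell, among them 0 to 8 and 1 to 2 members, 0 to 6 and 0 to 1 with the added fold threshold, and 6 to 26 and 1 to 11 genes of the other lists, immediate early and G2/M genes included. Without control 1 both numbers were above those with all libraries (1039 against 514 higher, 1042 against 677 lower). With any other library left out both were below. The cause of these shifts was not tested, and each of these fits held 1 library fewer. The median log2 fold change of the members was 0.35 to 0.52 with 1 library left out. The sign turned for 5 members that passed in no setting: Btg2 ranged from -0.13 to 0.28, Psrc1 from -0.038 to 0.41, Perp from -0.15 to 0.86, Ercc5 from -0.13 to 0.23 and Dcxr from -0.16 to 1.17.

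The labels give both groups replicate numbers 1 to 3. Deviations from the group means correlated at 0.0451, 0.0377 and -0.030 between libraries of the same number, and the library labelled cKO 3 correlated best with control 2 (0.0401), so the numbers were not taken to pair the libraries. With the replicate number as a block, 570 genes rose and 668 fell, among them 8 and 3 members, Cdkn1a and Fas being added, and the median of the members was 0.44.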
